A study of Mus musculus with 8 samples.

Results

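Chemokines are small secreted proteins that draw leukocytes along a gradient, and 35 of them were followed here in white adipose tissue of mice lacking Sel1l in adipocytes. They were taken from the array's annotation as every gene named Ccl or Cxcl with a number, plus Cx3cl1, Xcl1 and Pf4, whenever at least 1 probe set carried no other gene. That gave 35 of the 18820 genes with such a probe set. The remaining 4 of the 39 chemokine symbols in the annotation, Ccl21a, Ccl21b, Ccl21c and Ccl27a, shared all their probe sets with other genes and were not analysed here. All 8 mice were males on a C57BL/6 background, C57BL/6N and C57BL/6J mixed, and were kept for 5 weeks on D12492, a high fat diet of Research Diets. The 4 wildtype (WT) mice were compared with 4 mice whose floxed Sel1l was removed by Cre driven from the promoter of adiponectin. That promoter is active in adipocytes, so the leukocytes, vessels and stromal cells of the tissue were not targeted. The sources used here do not give age, fat depot or whether the controls carried the floxed allele or Cre.

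Chemokines are grouped by the spacing of their first cysteines into CC (Ccl), CXC (Cxcl), C (Xcl1) and CX3C (Cx3cl1) families, and they act on receptors coupled to G proteins that are shared between ligands. In obese fat they are known as products of adipocytes, macrophages, fibroblasts and endothelium. Those that bring in monocytes through Ccr2 have been studied most there. Some are produced constantly and place cells in a tissue, and others are switched on by NF-κB or interferon signalling.

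The label of the tissue was checked first. All 8 adipocyte markers examined lay between percentile 99.4 (Adipoq and Pnpla2) and 99.9 (Cidec) of all genes by mean signal. Sel1l itself was 0.79 lower on the log2 scale in the Sel1l-/- arrays (limma adjusted p = 0.0109), with no overlap between genotypes. Array medians ran from 6.05 to 6.08 in WT and from 6.10 to 6.14 in Sel1l-/- arrays, without overlap. Arrays correlated at 0.982 to 0.994 over all probe sets. Over all the cell type marker lists, 2 genes passed the threshold, both lower in Sel1l-/- mice, Cd2 of the T cell list and Pecam1 of the endothelial list. With the replicate number as a block 9 did, all lower, and these were Adipoq, Fcmr, Pecam1, Cd2, Wt1, Kit, Tek, Flt4 and Cd79a. Of all genes 1.72% passed in the first fit and 3.85% in the blocked one. The marker lists held 3 (liver) to 10 (macrophage) measured genes each, and the marker counts were not tested against those shares. In whole tissue, fewer cells of a type and less RNA per cell cannot be told apart.

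None of the 35 chemokines passed the threshold, an adjusted p under 0.05 in limma over all 18820 genes, while 1.72% of all genes did. The smallest adjusted p was 0.114, that of Pf4. At an unadjusted p under 0.05 there were 3 chemokines, 1 higher (Pf4) and 2 lower (Ccl11 and Cxcl12) in Sel1l-/- mice, or 8.57% of them against 15% of all genes. All 4 arrays of one genotype lay beyond all 4 of the other for 2 chemokines, Pf4 and Ccl11, or 5.71% of them against 10.3% of all genes. Both shares lay below that of the whole array in this fit, but they rest on 3 and 2 genes and were not tested against it. Of the 35 differences between Sel1l-/- and WT means, 15 were positive and 20 negative. Their median was -0.03 on the log2 scale, next to -0.0037 over all genes. With arrays centred on their medians it was -0.07. The median size without regard to sign was 0.20, next to 0.09 over all genes. These sizes are not like for like, since 32 of the 35 chemokines were not dim, against 14922 of all 18820 genes. Spread within a genotype, up to an SD of 1.60 among chemokines, was not taken into account. The largest difference was 0.97, for Ccl3, and the most negative was -0.73, for Ccl19. The 95% limma intervals of the 32 chemokines that were not dim reached a median of 0.45 to either side.

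**Figure D1:**
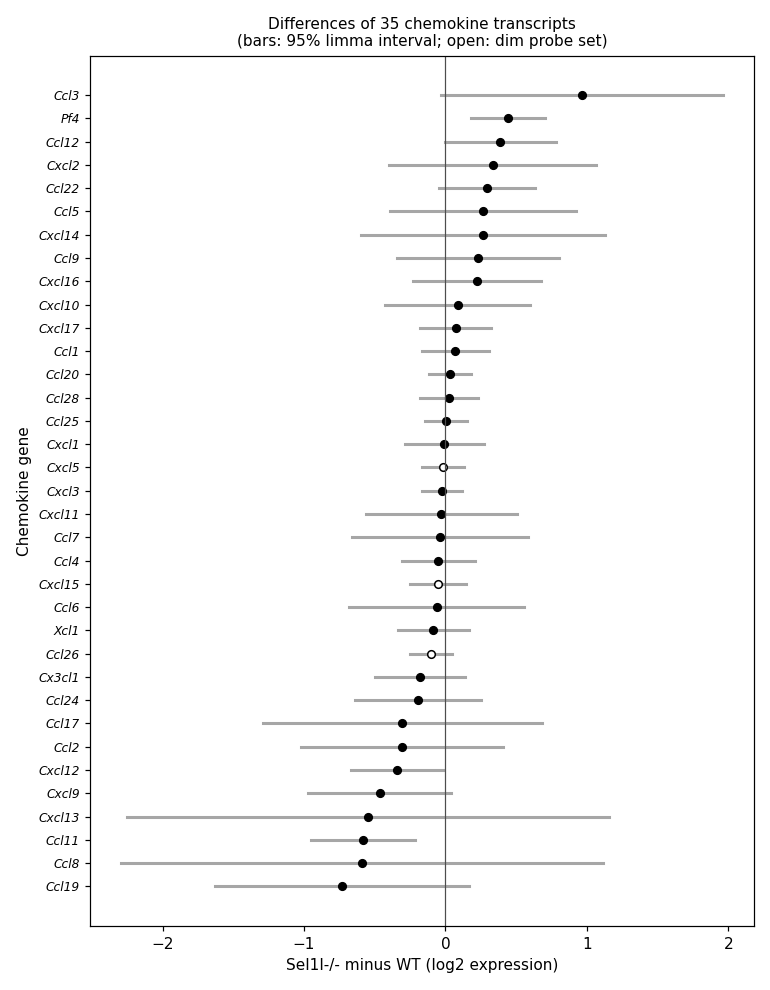
Difference between the Sel1l-/- and WT mean of each chemokine on the log2 scale (x axis), one row per gene from the most negative to the most positive, with the 95% limma interval as a bar (n = 4 mice per genotype) and open circles for dim probe sets. The intervals of Pf4, Ccl11 and Cxcl12 leave out 0, and the widest belong to Ccl8 and Cxcl13.

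Deviations of same-numbered mice from their genotype means correlated over all genes at 0.107 (pair 2) to 0.524. Pair 2 lay below the highest value between different numbers, 0.328, so these data do not clearly show pairs. Because every same-numbered value exceeded 0.1, the comparison was also made with the replicate number as a block. With this replicate block, 2 chemokines passed the threshold, Ccl3 and Pf4, both higher in Sel1l-/- mice, or 5.71% of the 35 against 3.85% of all genes. In that fit 12 chemokines (34.3%) had an unadjusted p under 0.05, against 21.4% of all genes. Both shares lay above that of the whole array here, but they rest on 2 and 12 genes and were not tested against it. The 12 were Ccl3, Pf4, Ccl12, Ccl9, Cxcl16 and Cxcl2, all with positive differences in 4 of 4 pairs, and 6 others. Of these, Cxcl12, Ccl11, Ccl2 and Ccl24 had negative differences in 4 of 4 pairs, and Cxcl9 and Ccl19 in 3 of 4. The sources used here do not say what a shared number stands for. With each pair of mice left out in turn, Ccl3 stayed past the threshold without pair 2 (adjusted p = 0.0376) and lost it without pairs 1, 3 and 4 (0.106, 0.108 and 0.0635), and Pf4 lost it without any of the 4 pairs (0.0660 to 0.137). Without pair 2, Cxcl9 passed as lower (adjusted p = 0.0448), as did Ccl17 (0.049982).

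The sequence just upstream of the start site was read for 24 chemokines found in RefSeq's promoter table (25 start sites, assembly GRCm38.p6, 250 bases each). Those of 5 genes are shown. Ccl3 and Pf4 were taken because they passed with the replicate block, and Ccl9 because it followed a mean of macrophage markers. Cxcl2 and Cxcl10 were taken as textbook targets of NF-κB and interferon, so a contrast with the others follows from the choice of genes. Capitals mark matches on either strand to an NF-κB pattern (GGGANNNNCC), an interferon-stimulated response element core (GAAANNGAAA) and a gamma-activated site (TTCNNNGAA). Overlapping matches are merged.
Ccl3, chr11:83649379-83649628, minus strand: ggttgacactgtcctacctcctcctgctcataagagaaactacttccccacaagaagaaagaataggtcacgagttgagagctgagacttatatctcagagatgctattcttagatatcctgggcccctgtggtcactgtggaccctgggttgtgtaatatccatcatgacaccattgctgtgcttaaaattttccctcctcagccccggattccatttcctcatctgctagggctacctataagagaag
Ccl9, chr11:83578637-83578886, minus strand: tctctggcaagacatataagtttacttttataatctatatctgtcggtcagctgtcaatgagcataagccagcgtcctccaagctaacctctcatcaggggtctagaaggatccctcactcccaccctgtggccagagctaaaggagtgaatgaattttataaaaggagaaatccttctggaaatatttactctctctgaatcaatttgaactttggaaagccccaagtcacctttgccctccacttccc
Pf4, chr5:90772185-90772434, plus strand: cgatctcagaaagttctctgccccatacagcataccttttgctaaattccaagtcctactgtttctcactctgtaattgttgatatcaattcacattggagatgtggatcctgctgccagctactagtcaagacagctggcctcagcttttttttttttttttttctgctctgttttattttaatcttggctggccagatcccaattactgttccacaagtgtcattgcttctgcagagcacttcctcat
Cxcl2, chr5:90903649-90903898, plus strand: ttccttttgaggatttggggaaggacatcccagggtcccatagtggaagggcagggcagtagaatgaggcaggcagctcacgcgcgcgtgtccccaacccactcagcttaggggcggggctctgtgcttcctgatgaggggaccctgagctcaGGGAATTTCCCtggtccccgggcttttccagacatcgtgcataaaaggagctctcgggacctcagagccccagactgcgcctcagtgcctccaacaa
Cxcl10, chr5:92348890-92349139, minus strand: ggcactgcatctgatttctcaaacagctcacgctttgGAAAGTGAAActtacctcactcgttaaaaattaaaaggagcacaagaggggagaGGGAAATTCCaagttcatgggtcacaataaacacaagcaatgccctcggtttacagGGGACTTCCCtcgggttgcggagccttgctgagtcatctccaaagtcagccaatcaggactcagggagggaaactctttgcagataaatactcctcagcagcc
The upstream windows of Ccl3, Ccl9 and Pf4 held none of the 3 patterns. That of Cxcl2 held 2 overlapping NF-κB matches, which begin 97 and 96 bases before the start site, and that of Cxcl10 held 2 NF-κB matches, at 159 and 103 bases, with an interferon element at 213 bases. The NF-κB pattern was in 10 of the 25 chemokine windows (40.0%) and in 17.6% of all 32851 windows of the table. The interferon pattern was in 3 of 25 (12%) against 2.98%, and the gamma-activated site in 2 of 25 (8.0%) against 7.02%. A match is a run of letters and not a shown binding site.

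Among ligands of the monocyte receptor Ccr2, no direction was shared. Ccl2, the main monocyte attractant of inflamed fat, read 9.14, 9.51, 9.08 and 10.38 in WT mice 1 to 4 and 8.72, 9.42, 9.01 and 9.71 in Sel1l-/- mice 1 to 4. The genotypes overlapped, and WT 4 was the highest of all 8. The difference was -0.31 (95% interval -1.02 to 0.41, adjusted p = 0.714). With the replicate block the interval was -0.58 to -0.03 (adjusted p = 0.187). Ccl7, a close relative, read 8.81, 9.51, 8.75 and 9.84 in WT and 8.75, 9.53, 9.02 and 9.45 in Sel1l-/- mice, a difference of -0.04 (adjusted p = 0.967). Ccl7 repeated the order of Ccl2 among the WT mice, with 4 highest and 3 lowest. Ccl12, the rodent relative of Ccl2, was faint. WT mice averaged 4.32 ± 0.29 (SD, n = 4), below the arrays' mean lower quartile of 4.35, and Sel1l-/- mice 4.71 ± 0.28. Its difference was 0.39 (adjusted p = 0.343), and its interval ran from -0.01 to 0.78. Ccl8, which signals through Ccr8 in mice, varied most within a genotype of the CC chemokines, with 6.90, 9.23, 6.04 and 8.80 in WT and 6.01, 7.13, 7.13 and 8.32 in Sel1l-/- mice. Its standard deviation in WT was 1.52 and its interval -2.30 to 1.11 (adjusted p = 0.775).

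Ccl11, or eotaxin, which attracts eosinophils through Ccr3 and is made largely by stromal cells, had the smallest p of the family after Pf4. It read 10.89, 10.90, 10.92 and 11.34 in WT mice and 10.14, 10.73, 10.64 and 10.22 in Sel1l-/- mice. Every Sel1l-/- array lay below every WT array, and the gap between the nearest mice was smaller than the spread within Sel1l-/- mice. The level was 1.5-fold lower, a difference of -0.58 (standard error 0.16, 95% interval -0.95 to -0.21), which did not pass after adjustment over all genes (adjusted p = 0.131). It ran from -0.47 without WT 4 to -0.68 without Sel1l-/- 2. It was negative in all 4 same-numbered pairs, by -0.17 to -1.12, and did not pass with the replicate block (adjusted p = 0.107). The other eotaxins were Ccl24, whose means were 8.15 ± 0.27 (WT) and 7.96 ± 0.36 (Sel1l-/-; SD, n = 4; adjusted p = 0.706), and Ccl26, which was dim. Of 5 eosinophil markers, Epx, Prg2 and Ear6 were dim, the mean of the list ran from 4.57 to 4.74 in WT and 4.44 to 4.94 in Sel1l-/- mice, and Ccr3 differed by 0.06 (adjusted p = 0.942). The mean of 7 fibroblast and progenitor markers ran from 10.52 to 10.84 in WT and 10.39 to 10.66 in Sel1l-/- mice, with 6 of 7 lower and none past the threshold, and its part in the Ccl11 values was not tested.

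Cxcl12, which holds cells that carry Cxcr4 in a tissue and is made by stromal and endothelial cells, read 9.28, 9.78, 9.43 and 9.64 in WT mice. It read 8.93, 9.25, 9.10 and 9.48 in Sel1l-/- mice, where mouse 4 lay above 2 WT mice. The difference was -0.34 (95% interval -0.67 to -0.02, adjusted p = 0.303), and it did not pass with the replicate block (adjusted p = 0.0640). Its receptor Cxcr4 differed by 0.25 (adjusted p = 0.673). Cx3cl1, the membrane-bound chemokine of endothelium, differed by -0.18 (adjusted p = 0.608), and the genotypes overlapped. All 7 endothelial markers had negative differences, 1 of them past the threshold (2 with the replicate block), and their mean ran from 10.20 to 10.37 in WT and 9.71 to 10.08 in Sel1l-/- mice without overlap. The part of endothelium in the Cxcl12 and Cx3cl1 values was not tested.

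**Figure D2:**
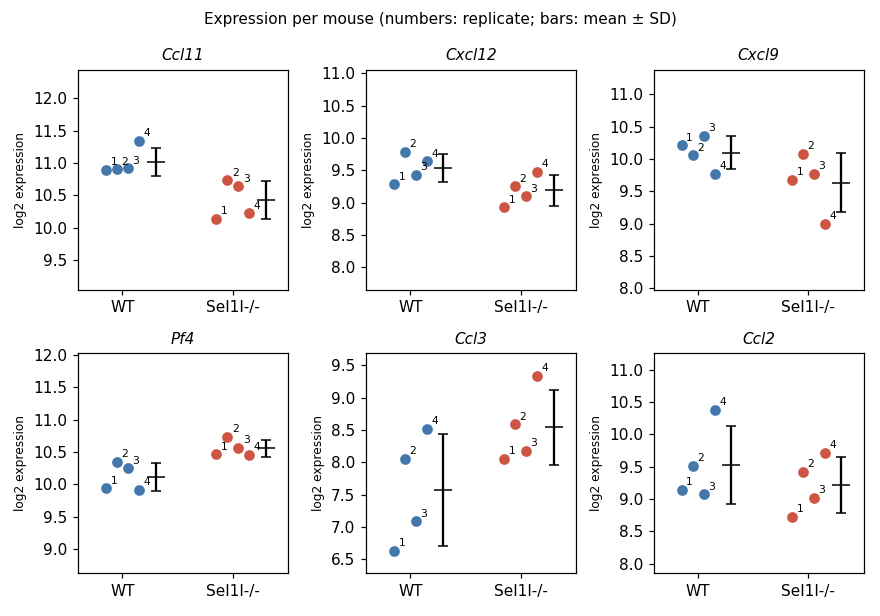
Log2 expression of Ccl11, Cxcl12, Cxcl9, Pf4, Ccl3 and Ccl2 in each mouse (points, with the replicate number beside them) and the mean ± SD per genotype (bars, n = 4), on y axes of equal width that do not start at 0. The genotypes do not overlap for Ccl11 and Pf4, and mice 2 and 4 are high in both genotypes for Ccl3 and Ccl2.

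Pf4, also known as Cxcl4, is stored in platelet granules and is also transcribed in macrophages. It read 9.94, 10.35, 10.25 and 9.91 in WT mice and 10.46, 10.73, 10.57 and 10.46 in Sel1l-/- mice. All Sel1l-/- arrays lay above all WT arrays, the nearest being WT 2 and Sel1l-/- 1 or 4. The level was 1.36-fold higher (difference 0.44, standard error 0.12, 95% interval 0.18 to 0.71, adjusted p = 0.114). With the replicate block the difference of 0.44 had a standard error of 0.07 and passed (adjusted p = 0.0281), and it was positive in each pair, from 0.32 to 0.55. Of the platelet list 4 of 6 genes were measured and none passed the threshold. Ppbp, another platelet chemokine, differed by -0.30 (adjusted p = 0.576), Gp9 by -0.26 (0.485), Itga2b by 0.07 (0.713) and Treml1 by 0.82 (0.279). The mean of the 4 ran from 6.38 to 6.55 in WT and 6.40 to 6.65 in Sel1l-/- mice. All 10 macrophage markers had positive differences, none past the threshold, and across mice Pf4 correlated with their mean at r = 0.40 (adjusted permutation p = 0.431) and at 0.0088 once genotype means were removed. The part of platelets or macrophages in the Pf4 values was not tested.

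Of the CC chemokines that activated macrophages release, Ccl3 had the largest difference. It read 6.63, 8.06, 7.09 and 8.52 in WT mice and 8.06, 8.59, 8.18 and 9.34 in Sel1l-/- mice. The genotypes overlapped, since WT 4 lay above 2 Sel1l-/- mice, but within each same-numbered pair the Sel1l-/- mouse was higher, by 1.43, 0.53, 1.09 and 0.82. The level was 1.95-fold higher (difference 0.97, standard error 0.44, 95% interval -0.03 to 1.96, adjusted p = 0.350). With the replicate block the standard error fell to 0.14 and the adjusted p was 0.0281. Each mouse code contains a letter, and in the only letter with both genotypes (F, with WT 4 and Sel1l-/- 1 and 2) Ccl3 differed by -0.20. Ccl4, its partner in many responses, was faint and differed by -0.05 (95% interval -0.31 to 0.21, adjusted p = 0.883), with readings between 5.01 and 5.46. Ccl3 and Ccl4 are neighbours in the RefSeq gene order, and where their probes lie is not stated in the sources used here. Ccl5, which T cells also make, read 8.20, 8.61, 7.33 and 8.64 in WT and 8.09, 8.82, 8.39 and 8.55 in Sel1l-/- mice. Its difference of 0.27 (adjusted p = 0.731) rested on WT 3 and was -0.02 without it. Ccl6 and Ccl9, myeloid Ccr1 ligands of rodents, differed by -0.06 and 0.23 (adjusted p = 0.945 and 0.737). By mean signal they lay at percentiles 98.0 and 95.2 of all genes, and Ccl9 was higher in the Sel1l-/- mouse of each pair by 0.16 to 0.35.

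The interferon-induced ligands of Cxcr3, which draw activated T cells, did not move as a group. Cxcl9 read 10.21, 10.06, 10.36 and 9.77 in WT and 9.68, 10.08, 9.77 and 9.0 in Sel1l-/- mice, and Sel1l-/- 4 was the lowest of all. The difference was -0.47 (95% interval -0.97 to 0.04, adjusted p = 0.379). Cxcl10, whose upstream window with 2 NF-κB matches is printed above, differed by 0.09 (95% interval -0.43 to 0.60, adjusted p = 0.899), and its readings of 7.49 to 8.53 in WT enclosed those of Sel1l-/- mice. Cxcl11, which RefSeq lists as a transcribed pseudogene in that assembly, differed by -0.03 (adjusted p = 0.973). Cxcr3 differed by 0.17 (adjusted p = 0.685) and Irf1, an interferon-induced transcription factor, by -0.34 (adjusted p = 0.157).

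Of the neutrophil attractants that bind Cxcr2, none passed the threshold. Cxcl5 and Cxcl15 were dim, meaning that both genotype means lay below 4.35, the mean lower quartile of all probe sets, as was Ccl26. Cxcl3 lay at that line, its WT mean just above and its Sel1l-/- mean just below, at 4.38 ± 0.05 (WT) and 4.35 ± 0.08 (Sel1l-/-; SD, n = 4). A dim probe set is not shown to be above background. Cxcl1 read 6.21, 6.40, 6.35 and 6.44 in WT and 6.29, 6.71, 6.13 and 6.24 in Sel1l-/- mice, a difference of -0.01 with an interval of -0.29 to 0.27 (adjusted p = 0.984). Cxcl2 read 4.58, 5.85, 5.11 and 5.78 in WT and 5.30, 6.14, 5.23 and 5.98 in Sel1l-/- mice, a difference of 0.33 (adjusted p = 0.695) that was positive in all 4 pairs. Both genotypes had mice 2 and 4 highest for Cxcl2. Of 5 measured neutrophil markers none passed the threshold, and Cxcr2 was dim.

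Chemokines that organise lymphocytes varied widely between mice of one genotype. Cxcl13, the B cell attractant of lymphoid follicles and fat-associated clusters, read 9.09, 11.12, 7.55 and 7.93 in WT and 7.32, 8.91, 8.23 and 9.03 in Sel1l-/- mice. Its standard deviation in WT, 1.60, was the largest of the 35, and its difference of -0.55 (95% interval -2.25 to 1.15, adjusted p = 0.794) was 0.18 without WT 2. Ccl19, which guides cells with Ccr7, read 7.53, 8.79, 7.33 and 9.07 in WT and 7.27, 7.23, 7.35 and 7.95 in Sel1l-/- mice. WT 2 and WT 4 stood above the other 6 mice, and the difference was -0.73 (95% interval -1.63 to 0.17, adjusted p = 0.447). The 5 probe sets of Ccl19 gave differences of -0.74 to -0.68, and 2 of them held identical values. Glycam1 and Madcam1, genes of lymph node vessels, differed by 0.04 and 0.06 (adjusted p = 0.910 and 0.890). Madcam1 was dim and Glycam1 faint, with a WT mean of 4.49, so they show little. In the same lymph node stroma list, Tnfsf11 differed by -0.09 and Chst4 by 0.30 (adjusted p = 0.771 and 0.801). Chst4 ranged from 6.25 to 8.43 in WT mice. Of 6 measured B cell markers 5 had negative differences and none passed the threshold, while Fcmr and Cd79a passed with the replicate block. Their mean ran from 6.02 to 6.65 in WT and 5.77 to 6.39 in Sel1l-/- mice, and their part in the Cxcl13 values was not tested.

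The remaining members are given together. Ccl17 and Ccl22, the Ccr4 ligands of dendritic cells and macrophages, differed by -0.30 and 0.30 (adjusted p = 0.804 and 0.409), in opposite directions, and Ccl17 ranged from 5.48 in Sel1l-/- 4 to 7.33 in WT 3. Cxcl16, a transmembrane scavenger receptor and Cxcr6 ligand, read 8.02, 8.40, 8.13 and 8.60 in WT and 8.18, 8.55, 8.28 and 9.02 in Sel1l-/- mice (difference 0.22, adjusted p = 0.670). Its order of mice was the same in both genotypes, with 1 lowest and 4 highest. Cxcl14, a chemokine of epithelia and fat, was highest in mouse 4 of each genotype, at 8.24 in WT and 8.43 in Sel1l-/-, and differed by 0.26 (95% interval -0.60 to 1.13, adjusted p = 0.804). Ccl20, Ccl25, Ccl28, Ccl1, Xcl1 and Cxcl17, ligands known mainly from mucosa, skin and lymphocytes, differed by -0.09 (Xcl1) to 0.07 (Cxcl17). Their intervals lay within -0.34 and 0.32. The second probe set of Ccl25, not used here, gave 0.15, next to 0.00 for the one used.

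Chemokine genes lie in clusters, and neighbours in the GRCm38.p6 gene order did not all share a direction. On chromosome 11, the run from Ccl2 through Ccl7, Ccl11, Ccl12 and Ccl8 to Ccl1 had differences from -0.59 to 0.39, with 2 positive and 4 negative. The second run on that chromosome, with Ccl5, Ccl9, Ccl6, Ccl3 and Ccl4, had differences from -0.06 to 0.97 and a median of 0.23. Of these 3 were positive and 2 negative, the latter small (Ccl6 -0.06 and Ccl4 -0.05). On chromosome 5, Pf4 differed by 0.44, while Cxcl5, Cxcl3, Cxcl15, Cxcl1 and Cxcl2 beside it were faint or had intervals that included 0. Ppbp, a platelet chemokine also on chromosome 5, fell outside the naming rule and was not counted among these neighbours. It was not faint, with a WT mean of 8.20, and its difference was opposite in sign to that of Pf4. That difference was -0.30, with an interval of -0.80 to 0.19 (limma adjusted p = 0.576). With the replicate block the interval of Cxcl2 was 0.08 to 0.59 (adjusted p = 0.141).

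**Figure D3:**
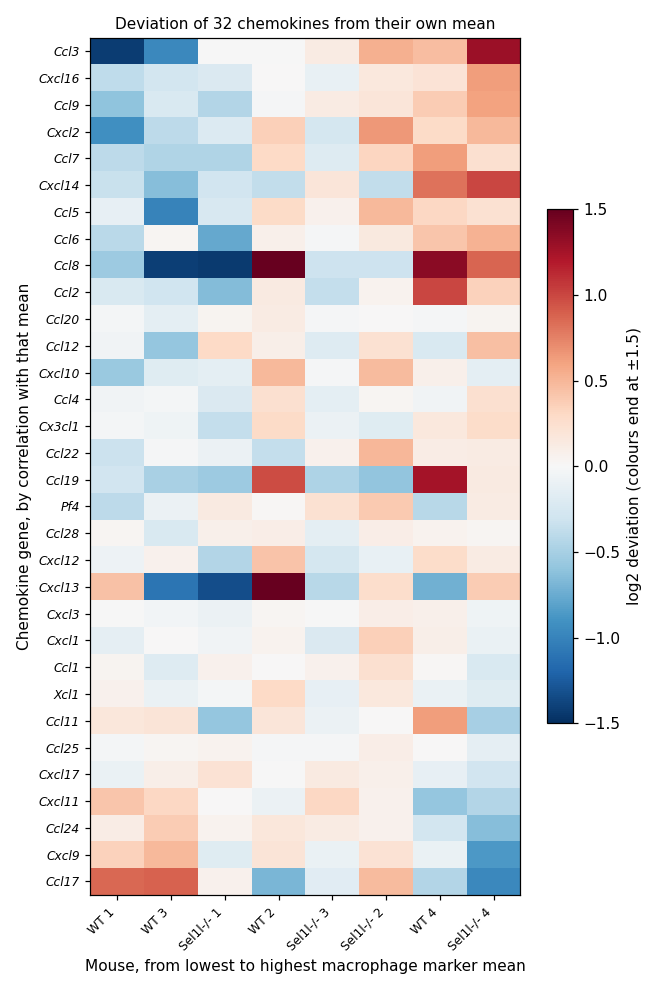
Deviation of each of 32 chemokines that were not dim (rows) from its own mean over the 8 mice (columns, ordered by the mean of 10 macrophage markers), in log2 units, with rows ordered by their correlation with that mean. Ccl3, Cxcl16 and Ccl9 at the top pass from low in WT 1 and WT 3 to high in Sel1l-/- 4, and Ccl17, Cxcl9, Ccl24 and Cxcl11 at the bottom run the other way.

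Several chemokines varied with a mean of macrophage markers between mice. The mean of 10 macrophage markers (Adgre1, Cd68, Csf1r, Itgam, Itgax, Trem2, Cd14, Lyz2, Mrc1 and Cd163) was 9.57, 10.35, 9.60 and 10.47 in WT mice and 9.96, 10.42, 10.37 and 10.90 in Sel1l-/- mice. It was 0.42 higher in Sel1l-/- mice, the genotypes overlapped, and none of its genes passed the threshold. The markers did not weigh equally in it, since Itgax spanned 3.66 and Trem2 2.78 log2 units over the 8 mice, and Lyz2 0.36. Cd163 was lowest in mouse 4 of each genotype (8.21 in WT, 8.36 in Sel1l-/-), where the mean was highest. The chemokines were not correlated with single markers. Each of the 32 chemokines that were not dim was correlated with this mean over the 8 mice, and p-values from exact permutation were adjusted over the 32. Cxcl16 gave r = 0.92 and rho = 0.98 (adjusted permutation p = 0.00238 and 0.00635). Ccl3 gave r = 0.96 and rho = 0.95 (adjusted permutation p = 0.00238 and 0.0122), and Ccl9 gave r = 0.92 and rho = 0.98 (0.0172 and 0.00635). Without WT 1 and WT 3, the mice farthest from the median of the marker mean, r was 0.94 for Cxcl16, 0.89 for Ccl3 and 0.96 for Ccl9, so r stayed high without those mice. With genotype means removed, r was 0.92, 0.96 and 0.92, and it was as high or nearly so for Ccl8 (0.95), Cxcl12 (0.92), Ccl19 (0.91), Ccl7 (0.91), Ccl2 (0.89) and Cx3cl1 (0.89). The permutation exchanged all 8 mice freely and did not keep the same-numbered pairs together. Within pairs 1 to 4 the marker mean differed by 0.39, 0.07, 0.78 and 0.42, Ccl3 by 1.43, 0.53, 1.09 and 0.82, Ccl9 by 0.16, 0.20, 0.35 and 0.22, and Cxcl16 by 0.16, 0.15, 0.16 and 0.42. The largest marker difference, in pair 3, went with the largest of Ccl9 but not of Ccl3 or Cxcl16, and 4 pairs are too few for a correlation. Each genotype, letter or number holds at most 4 mice, too few for a correlation of its own.

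No other chemokine passed this adjustment. The most negative were Ccl17 (r = -0.86, adjusted permutation p = 0.0703), Cxcl9 (r = -0.77), Ccl24 (r = -0.76) and Cxcl11 (r = -0.74), and for these the adjusted permutation p was at least 0.0703. Ccl2 gave r = 0.58 over the 8 mice and 0.89 with genotype means removed, and Cxcl12 0.29 and 0.92, since both had negative genotype differences while the marker mean was higher in Sel1l-/- mice. Ccl11 gave -0.20 and 0.34. Of the 32 chemokines, 23 had a positive r and 9 a negative one. These markers and chemokines were read from the same arrays, so the points share RNA quality and array scale.

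**Figure D4:**
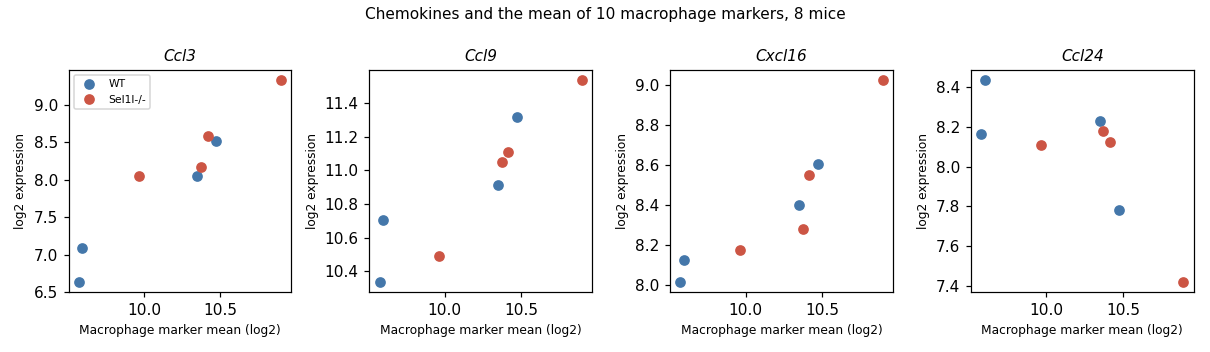
Log2 expression of Ccl3, Ccl9, Cxcl16 and Ccl24 (y axes, which do not start at 0) against the mean log2 expression of 10 macrophage markers (x axes) in the 8 mice, WT in blue and Sel1l-/- in red. Ccl3, Ccl9 and Cxcl16 rise with the marker mean in both genotypes (r = 0.96, 0.92 and 0.92), while Ccl24 is lowest in Sel1l-/- 4 (r = -0.76).

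On the receiving side, none of 22 measured chemokine receptors, atypical receptors included, passed the threshold, where 1.72% of all genes did, and 6 of them were dim. Their median difference was -0.01, with 10 positive and 12 negative. The smallest p was that of Cxcr5, the Cxcl13 receptor of B cells, whose probe set was dim. It read 4.28, 4.51, 4.31 and 4.08 in WT and 3.82, 3.97, 3.72 and 3.71 in Sel1l-/- mice, without overlap, a difference of -0.49 (adjusted p = 0.0566, and 0.0221 with the replicate block). Next came Cx3cr1, a monocyte and macrophage receptor, at 0.33 (adjusted p = 0.503), Ccr10 at -0.09 (0.533) and Xcr1, the Xcl1 receptor of cross-presenting dendritic cells, at 0.38 (0.535). Ccr2, the receptor of Ccl2, differed by -0.17 (adjusted p = 0.838).

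Of 20 regulators and inflammatory inducers listed upstream of chemokine genes, 18 were measured and none passed the threshold. At an unadjusted p under 0.05 there were 4 (22.2%, against 15% of all genes), named after their values were seen. Nfkbia, the inhibitor that NF-κB itself induces, differed by -0.26 (adjusted p = 0.121) and Irf1 by -0.34. Tlr2, a receptor for microbial lipoproteins, differed by 0.36 (adjusted p = 0.312) and Csf1, the macrophage growth factor, by 0.30 (adjusted p = 0.237).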

How the data were processed

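RNA of white adipose tissue from 8 male mice, 1 array each, was measured on 1-colour arrays with biotin label, per the labels' protocols. The deposited log2 values run from 1.72 to 13.9, and the scale was read from that range. The authors made them with RMA, per the submitters' processing notes, a method that corrects background and equalises the arrays' distributions, which hides a shift shared by most transcripts. The sources used here state neither version nor filters.

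Of 35556 probe sets, 21218 carried 1 gene symbol in the platform annotation, 1881 several, and 12457 are unnamed here. For each of 18820 genes the single-gene probe set of highest mean was kept, and 18790 of them matched the RefSeq table of GRCm38.p6 by Entrez number. Its order of genes was used without coordinates, since the array's build is not known. Promoter sequences are RefSeq's. The genotypes were tested by lmFit and eBayes of limma 3.58.1 (R 4.3.3; two-sided, prior degrees of freedom 2.60). P-values were adjusted by Benjamini-Hochberg across the 18820 genes, the threshold was 0.05, and the script was tested on simulated data. Differences are Sel1l-/- minus WT means of log2 values. Dim means that both genotype means lay below the mean lower quartile of all probe sets. Named chemokines were all that were not dim. Correlations used exact permutation of 8 mice, two-sided. Figures used Python 3.11.15, pandas 2.3.3 and matplotlib 3.10.9.

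Deviations of same-numbered mice from their genotype means correlated at 0.107 to 0.524 over all genes. By the rule of exceeding 0.1 in every pair, the numbers were treated as pairs in the replicate block. The highest value between different numbers was 0.328, and no label says what a number shares. The limma p-values set a genotype difference against the spread between these mice, in the replicate block after the shared number was taken out. The permutation p-values of the correlations rest on exchanging the mice. The members and lists were chosen with earlier results of these data known. The alternatives tried were array centring, 3 blocks, array weights, another variance model, a filter on dim genes, other probe set choices and leaving out each array.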

Additional observations from a re-analysis of the deposited data

Results flagged for a closer look

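In 5 of 64 sets of 4 mice, each 1 chemokine in 1 genotype, 1 mouse stood apart from the other 3 by more than Dixon's 95% critical share of the range, where chance gives about 1 in 20. They were Ccl11 in WT 4 (11.34, the next at 10.92), Ccl19 in Sel1l-/- 4 (7.95, the next at 7.35), Ccl24 in Sel1l-/- 4 (7.42, the next at 8.11), Ccl4 in WT 2 (5.46, the next at 5.20) and Ccl1 in WT 3 (4.51, the next at 4.71). Mouse 4 of a genotype accounted for 3 of the 5.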

How the results depend on the processing

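No chemokine passed the threshold under any alternative other than the replicate block, which called 2 higher (Ccl3 and Pf4) and, of all genes, 358 higher and 367 lower in place of 195 and 129. Leaving out a same-numbered pair from that paired fit was chosen after seeing the data. Other counts of all genes called were 119 higher and 154 lower with arrays centred on their medians, 7 higher and 13 lower with the code letter blocked, 8 and 3 with the code number blocked, and 347 and 219 with array weights. They ran from 66 to 244 higher and 31 to 140 lower with 1 array left out. The letter block rests on 3 mice of letter F, and with it the difference changed sign for Ccl17 (0.71), Ccl24 (0.34), Ccl3 (-0.20), Ccl5 (-0.18), Ccl9 (-0.52), Cxcl1 (0.0575), Cxcl11 (0.61), Cxcl13 (0.18), Cxcl14 (-1.14), Cxcl16 (-0.24), Cxcl2 (-0.0568), Cxcl9 (0.11) and Xcl1 (0.16). Signs also changed with centring for Ccl20 (-0.00828), Ccl25 (-0.0371) and Ccl28 (-0.0170), with the number block for Cxcl11 (0.0289), and with array weights for Ccl17 (0.0142), Ccl20 (-0.00397), Ccl28 (-0.0123), Cxcl1 (0.0362), Cxcl11 (0.0642) and Cxcl3 (0.00138). With 1 array left out, differences spanned 0 for Ccl20 (-0.00794 to 0.0795), Ccl25 (-0.0294 to 0.0524), Ccl28 (-0.0474 to 0.0791), Ccl4 (-0.14 to 0.0209), Ccl5 (-0.0204 to 0.42), Ccl6 (-0.25 to 0.18), Ccl7 (-0.20 to 0.16), Cxcl1 (-0.13 to 0.0623), Cxcl10 (-0.0844 to 0.26), Cxcl11 (-0.23 to 0.11), Cxcl13 (-1.01 to 0.18) and Cxcl14 (-0.0250 to 0.58). The cause was not tested. The signs of Pf4, Ccl11 and Cxcl12 held in every alternative run. A held sign does not set them apart, since those of Ccl1 and Ccl8, among others, held too (adjusted p = 0.814 and 0.775 in the main limma fit). With 4 arrays per genotype, their number limits the precision, and for dim probe sets signal over background does.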
